A study of Homo sapiens with 4 samples.

Results

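SYT1 and PCDH17, genes best known from nerve cells, were examined in human embryonic kidney HEK293 cells that stably overexpress PRL-1. They were picked by name, as 2 of the 184 target genes measured by qRT-PCR, because earlier results of the same samples placed both among the largest decreases. The difference between HEK293-PRL-1 and HEK293-vector cells was therefore part of the choice, and for these 2 genes it is given as a description without a test.

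HEK293 is an established human cell line. HEK293-PRL-1 cells were stably transfected with pcDNA4-PRL-1 and HEK293-vector cells with empty pcDNA4, and both were grown in DMEM with fetal bovine serum, penicillin and streptomycin. RNA came from 2 cultures of each line, labelled biological replicates, which gave 4 samples in all. The study describes a single stable line per construct, so that an effect of PRL-1 and a difference between the lines cannot be told apart. PRL-1 is a small tyrosine phosphatase of the regenerating liver family, encoded by PTP4A1, and the PTP4A1 assay reached the cap of 40 cycles in all 4 samples, so that the overexpression itself was not measured here. Whether fewer cells carried a transcript or each cell carried less of it cannot be told apart in RNA from whole cultures. The 4 columns of values carry the letters a and b, which are used here as names of the samples (HEK293-vector a and b, HEK293-PRL-1 a and b) and which the labels do not tie to replicate numbers.

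Synaptotagmin 1, the product of SYT1, is a membrane protein of synaptic vesicles that binds calcium through a pair of C2 domains and triggers the fusion of the vesicle with the plasma membrane. Synaptotagmin 2, encoded by SYT2, is its close relative and serves the same step in other neurons. Protocadherin 17, the product of PCDH17, is a cell surface adhesion molecule of the cadherin superfamily that binds its like on neighbouring cells. In neurons it recruits the WAVE complex, which activates the Arp2/3 complex to build branched actin. HEK293 cells are known to express a number of genes that are typical of neurons.

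According to RefSeq (GRCh38.p14), SYT1 lies on chromosome 12 from position 78863982 to 79452008 and PCDH17 on chromosome 13 from 57630108 to 57729311. For each gene, the 250 bases before the start site that the promoter table gives, which lies inside the annotated gene, are shown because both genes were lower in the same samples. The SYT1 window is chr12:78864524-78864773 and the PCDH17 window chr13:57631494-57631743, both on the plus strand. They are printed 5′ to 3′, with the letters CCAAT (the CCAAT box) in capitals where they occur on the printed strand, and ATTGG in capitals where they occur on the other strand.
SYT1: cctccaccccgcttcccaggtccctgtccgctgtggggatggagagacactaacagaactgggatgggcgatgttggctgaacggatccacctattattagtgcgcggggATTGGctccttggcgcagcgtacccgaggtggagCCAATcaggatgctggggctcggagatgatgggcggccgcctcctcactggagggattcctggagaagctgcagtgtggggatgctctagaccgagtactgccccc
PCDH17: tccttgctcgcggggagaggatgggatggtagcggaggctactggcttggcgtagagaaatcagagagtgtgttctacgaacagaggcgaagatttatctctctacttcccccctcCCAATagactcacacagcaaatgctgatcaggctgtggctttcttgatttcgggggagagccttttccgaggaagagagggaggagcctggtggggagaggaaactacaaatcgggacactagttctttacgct
The SYT1 window holds the CCAAT box at 2 places and the PCDH17 window at 1 place. It occurs on either strand in 32.0% of the 35114 windows of this length before annotated starts, and in neither of the 2 windows of SYT2. The GC box GGGCGG, searched on both strands, occurs once before SYT1, not before PCDH17, and in 42.6% of all windows. The TATA box TATAAA (10.7% of all windows) and the motif CAGGTG (17.5%), an E-box bound by ZEB1, were found in neither window on either strand. The share of G and C was 62.0% before SYT1 and 52.8% before PCDH17, against a median of 58.0% over all windows. These matches describe letters and were not tested for any binding.

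The threshold cycle (Ct) is the cycle of PCR at which the fluorescence of the TaqMan probe passes a set level. A higher Ct means less template, and each cycle stands for a doubling if amplification is complete. Runs ended at 40 cycles, and a Ct of 40 means that the threshold was not reached. ΔCt is the Ct of an assay minus the mean Ct of the 2 wells of 18S ribosomal RNA in the same sample, and a log2 fold change is the group mean of ΔCt for the vector line less that for the PRL-1 line, so that negative values mean less transcript in HEK293-PRL-1. Of the 184 target assays, 174 were below 40 in at least 1 sample and were tested. The mean 18S Ct lay between 13.9 and 14.2 cycles in the 4 samples, a range of 0.264 cycles.

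SYT1 (assay Hs00194572_m1) was detected in both HEK293-vector samples and was at or near the limit of detection in HEK293-PRL-1. Its raw Ct was 35.3 in HEK293-vector a and 34.1 in HEK293-vector b. In HEK293-PRL-1 a it was at the cap of 40, and in HEK293-PRL-1 b it was 38.8. The groups did not overlap, with 3.55 cycles between the later vector sample and the earlier PRL-1 sample. Both vector samples crossed the threshold well before the last cycle, by 4.71 and 5.91 cycles, whereas the only HEK293-PRL-1 sample that crossed it did so 1.16 cycles before the end.

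Relative to 18S, SYT1 had a mean ΔCt in HEK293-vector of 20.7 ± 0.929 cycles (SD, n = 2). The HEK293-PRL-1 mean was 25.3 ± 0.773 cycles (SD, n = 2). This is a log2 fold change of −4.55, with a standard error of 0.85 from the spread of this assay alone, and 4.25% of the vector level. Since the Ct of 40 in HEK293-PRL-1 a stands for a threshold that was not reached, this value can only make the decrease look too small. The spread between the samples can move the estimate either way. The 4 pairs that can be made of a vector sample and a PRL-1 sample gave values from −5.76 to −3.35, so that every PRL-1 sample was lower than every vector sample by at least 10.2-fold. With HEK293-PRL-1 a left out as not detected, the log2 fold change was −4.01. It was −5.21 without HEK293-vector a, −3.90 without HEK293-vector b and −5.10 without HEK293-PRL-1 b.

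PCDH17 (assay Hs00205457_m1) was a late signal already in HEK293-vector, with raw Ct values of 37.0 in sample a and 36.3 in sample b. In HEK293-PRL-1 they were 39.6 and 39.4, which is 0.378 and 0.585 cycles before the cap. PCDH17 was thus below the cap in every sample, but in HEK293-PRL-1 by less than a cycle. The groups were separated by 2.39 cycles of raw Ct.

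For PCDH17, ΔCt averaged 22.7 ± 0.580 cycles (SD, n = 2) in the vector line. In the PRL-1 line it averaged 25.4 ± 0.0967 cycles (SD, n = 2). The resulting log2 fold change was −2.67 with a standard error of 0.42 from the spread of this assay, or 15.7% of the vector level. The 4 pairs of a vector and a PRL-1 sample gave values from −3.15 to −2.19. Omitting any single sample gave between −3.08 and −2.26. The 2 PRL-1 values were close to each other, but a Ct cannot exceed 40, so that values in the last cycle have little room to spread upwards. With both PRL-1 samples at 40 the mean ΔCt would be 25.9 cycles, close to the 25.4 cycles of PCDH17. Its late Ct in HEK293-vector thus limits the decrease that could be measured.

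**Figure D1:**
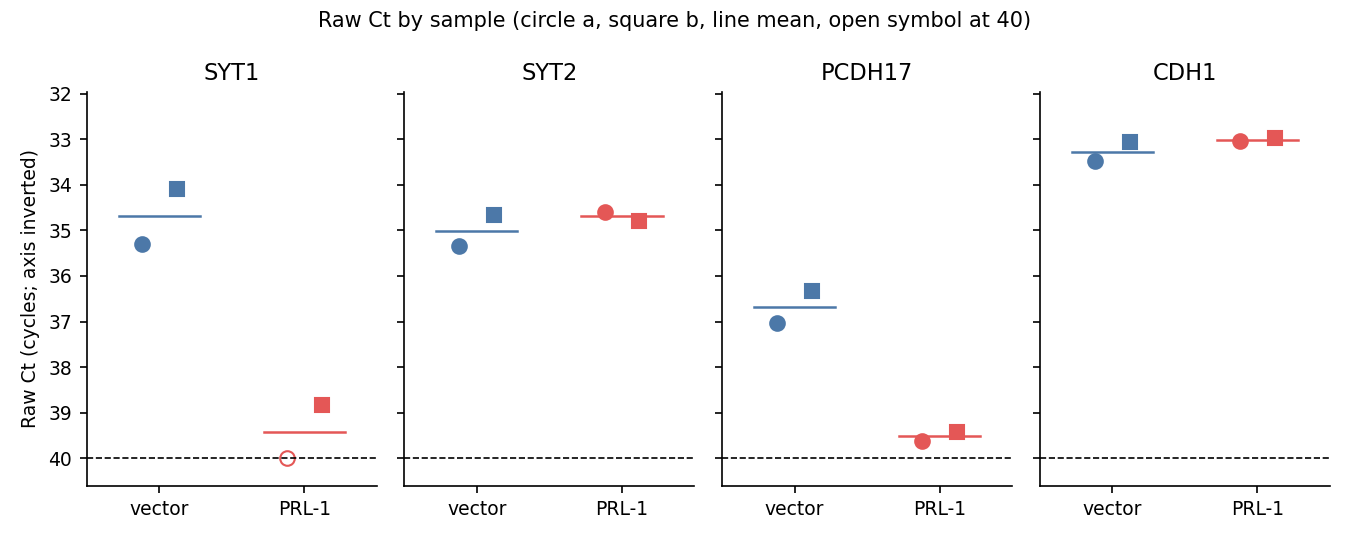
Raw Ct in cycles, on an inverted axis, of SYT1, SYT2, PCDH17 and CDH1 in the 2 HEK293-vector and 2 HEK293-PRL-1 samples, with circles for a, squares for b, lines for the group means and a dashed line at the cap of 40. SYT1 reached 40 (open symbol) in HEK293-PRL-1 a and PCDH17 lay between 39.4 and 39.6 in HEK293-PRL-1, while SYT2 lay between 34.6 and 35.3 and CDH1 between 33.0 and 33.5 over all 4 samples.

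The nearest relatives on the panel did not share this pattern. SYT2 (Hs00980604_m1) crossed the threshold at Ct 35.3 and 34.7 in the vector samples a and b and at 34.6 and 34.8 in the PRL-1 samples, and its groups overlapped. Relative to 18S its log2 fold change was 0.48 with a standard error of 0.34, and the limma p adjusted over all tested assays was 0.287. It passed as higher only without HEK293-vector b. CDH1, which encodes E-cadherin, the classical cadherin of epithelial junctions, was at Ct 33.5 and 33.1 in the vector samples and at 33.0 in both PRL-1 samples. This gave 0.44 on the log2 scale, with a standard error of 0.27 and an adjusted p of 0.224. With GAPDH as the reference neither passed, whereas with B2M both were called lower, SYT2 by −1.90 and CDH1 by −1.94, and likewise with the median of the panel, by −1.70 and −1.75. In the limma fit with B2M all assays shared a standard error of 0.53, and its adjusted p-values are too small.

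A difference between 2 assays in the same sample does not depend on the reference. The Ct of SYT1 minus that of SYT2 was −0.0454 and −0.579 cycles in HEK293-vector a and b, so that the paralogs crossed the threshold at nearly the same cycle. It was 5.40 and 4.05 cycles in HEK293-PRL-1 a and b, where the first value is a lower limit because SYT1 was at 40. Between the groups, SYT1 therefore shifted against SYT2 by −5.04 on the log2 scale. The Ct of PCDH17 minus that of CDH1 was 3.54 and 3.25 cycles in HEK293-vector and 6.57 and 6.45 cycles in HEK293-PRL-1, a shift of −3.11. The shift of SYT1 against PCDH17 was −1.88, with values of −1.74 and −2.23 cycles in HEK293-vector and of 0.378 and −0.578 cycles in HEK293-PRL-1. The value of 0.378 is again a lower limit because SYT1 was at 40. PCDH17 was itself less than a cycle from 40 in both HEK293-PRL-1 samples, which limits this comparison. These differences contain the values by which the genes were chosen and are given as a description.

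Among the 174 tested assays, SYT1 had the largest decrease relative to 18S and PCDH17 the fourth largest as measured. HNF4A and ITGB4 lay between them with −3.27 and −2.99, where the first is a bound because both HEK293-PRL-1 samples were at 40, so that its order against SYT1 is not settled. PCDH17 was at rank 3 without HEK293-vector a or with Ct 40 as missing, and at rank 5 without HEK293-vector b or HEK293-PRL-1 b. Its late Ct in HEK293-vector limits the decrease that could be measured, and so its rank. The next decreases after PCDH17 were those of PTP4A3, which encodes the related phosphatase PRL-3, with −2.67, equal to PCDH17 at this precision, and of COL5A1, which encodes a chain of collagen V, with −2.04. Relative to 18S, decreases were less common than increases on this panel, which was not so with the panel median or B2M as the reference. The log2 fold change relative to 18S was below 0 in 23.6% of the tested assays, at least 2-fold lower in 7.47%, and lower with no overlap of the groups in 14.4%. Without regard to direction, the groups did not overlap in 83.3%. Both SYT1 and PCDH17 belong to each of these shares, which the choice of the genes decided.

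**Figure D2:**
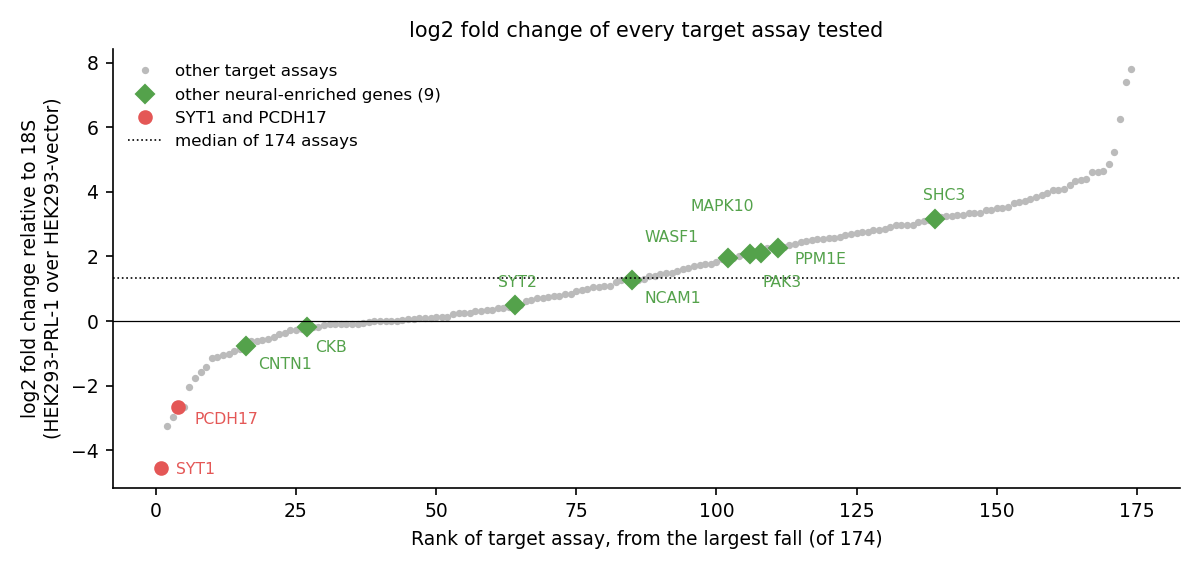
log2 fold change relative to 18S (HEK293-PRL-1 over HEK293-vector) of the 174 tested target assays, ordered from the largest decrease, with SYT1 and PCDH17 as red circles, 9 other genes enriched in neural tissue as green diamonds and the median of all tested assays as a dotted line. SYT1 and PCDH17 are at ranks 1 and 4, and the other neural genes lie between −0.79 and 3.16 around a median of 1.34 for all assays.

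The likeness of profiles was measured as the Euclidean distance between ΔCt values over the 4 samples, after each assay was centred on its own mean. The assays closest to SYT1 were HNF4A at 1.60 cycles, ITGB4 at 1.96 cycles and PCDH17 at 2.03 cycles. HNF4A encodes a transcription factor of liver and kidney epithelium, and ITGB4 the integrin subunit of hemidesmosomes. The assays closest to PCDH17 were PTP4A3 at 0.533 cycles, ITGB4 at 0.612 cycles and HNF4A at 0.624 cycles, all nearer than any assay was to SYT1. SYT1 was only in place 15 among the neighbours of PCDH17. With 4 samples in 2 groups, these distances mostly repeat the sizes of the change.

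The size of both decreases depended on the reference, and their direction did not under the references used here. GAPDH encodes a glycolytic enzyme and B2M the light chain of class I MHC molecules. The mean Ct of B2M was 28.4 and 28.1 in HEK293-vector and 26.0 in both HEK293-PRL-1 samples, which is a log2 fold change of 2.38 relative to 18S (limma, adjusted p = 0.00167). The log2 fold change of GAPDH relative to 18S was 0.55 (limma, adjusted p = 0.0793). The 2 B2M wells of HEK293-vector a were at 28.06, on the plate of SYT1 and PCDH17, and at 28.70. In each of the other samples the 2 B2M wells lay closer together. With GAPDH as the reference the log2 fold change was −5.11 for SYT1 and −3.22 for PCDH17. With B2M it was −6.93 and −5.05. With the median Ct of the target assays that were below 40 in all 4 samples it was −6.74 and −4.86. For SYT1 the level in HEK293-PRL-1 was thus 4.25% of the vector level with 18S and 0.817% with B2M. The value at 40 can only make these estimates too high, but they also carry the spread between 2 samples per group. For PCDH17 the level was 15.7% with 18S and 3.02% with B2M.

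These references moved the whole panel together. The median log2 fold change of the 174 tested assays was 1.34 with 18S, 0.79 with GAPDH, −0.85 with the panel median and −1.04 with B2M. A reference takes the same value from every assay of a sample, so that the distance of an assay from this median and its rank cannot depend on it. That distance was −5.89 for SYT1 and −4.01 for PCDH17. The 2 vector samples of SYT1 were also closer to each other with the panel median, at an SD of 0.538 cycles, than with 18S, at 0.929 cycles. For PCDH17 the SD in HEK293-vector was 0.188 cycles with the panel median and 0.580 cycles with 18S.

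**Figure D3:**
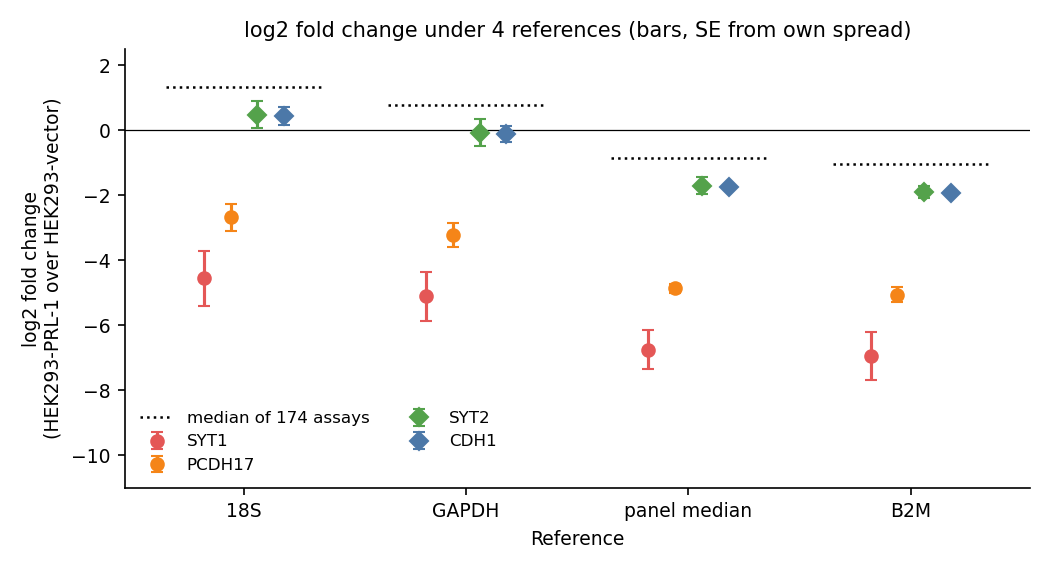
log2 fold change (HEK293-PRL-1 over HEK293-vector) of SYT1, PCDH17, SYT2 and CDH1 with 18S, GAPDH, the panel median or B2M as the reference, with bars for the standard error from the spread of each assay and dotted lines for the median of the 174 tested assays. SYT1 moved from −4.55 to −6.93 and PCDH17 from −2.67 to −5.05 between 18S and B2M, and the median of the panel moved by the same distance.

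Late Ct values are known to carry more error, since few template molecules enter the well. In HEK293-vector, the median difference of ΔCt between the 2 samples was 0.178 cycles in the 56 assays with a mean Ct below 30. It was 0.570 cycles in the 79 assays from 30 to 35. In the 33 assays with a mean Ct of 35 or later and no value at 40 it was 0.543 cycles, no larger than from 30 to 35. Over the 174 tested assays, ΔCt in HEK293-vector a exceeded that in HEK293-vector b by a median of 0.419 cycles. The differences thus include a shift shared by the panel. SYT1 differed by 1.31 cycles and PCDH17 by 0.820 cycles between the vector samples. In the range of Ct from 30 to 35, which holds the SYT1 mean of the vector samples, 2 of 79 assays differed by more than SYT1 did. Of the 33 latest assays, 11 differed by more than PCDH17. In HEK293-PRL-1 the median difference was 0.266 cycles below a Ct of 30 and 0.254 cycles in the 21 latest assays, so that it was not larger at late Ct. Of these 21 assays, 13 differed by more than the 0.137 cycles of PCDH17. The difference of 1.09 cycles of SYT1 in HEK293-PRL-1 includes a value at the cap and is a lower limit. In HEK293-PRL-1, 2 of the 174 tested assays had a later mean Ct than SYT1 and 1 had a later mean Ct than PCDH17.

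**Figure D4:**
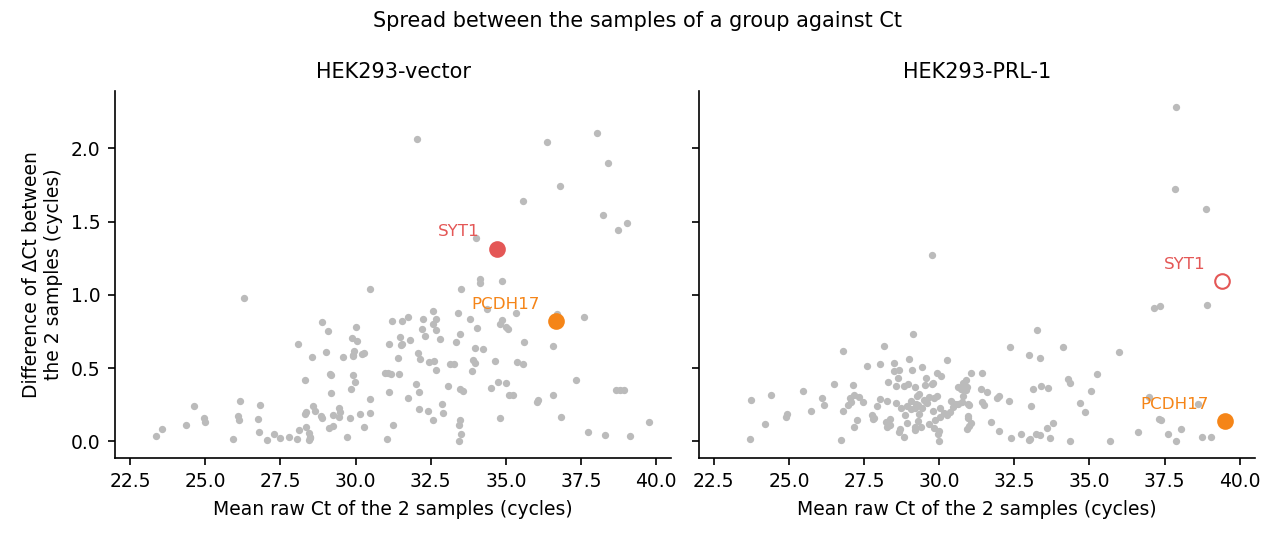
Difference of ΔCt between the 2 samples of a group, in cycles, against their mean raw Ct, for target assays below 40 in both samples (grey), with SYT1 and PCDH17 marked and an open symbol where a sample was at 40. SYT1 lies high among assays of similar Ct in HEK293-vector (1.31 cycles), and PCDH17 lies low in HEK293-PRL-1 (0.137 cycles).

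Of 9 other genes of neural tissue on the panel, 5 rose relative to 18S (limma, adjusted p at most 0.05) and 4 did not pass. Of all tested assays 66.1% were called, with 58.6% higher and 7.47% lower, so that these counts were near those of the whole panel. Their median log2 fold change was 1.94, against 1.34 for all tested assays. The genes that rose were SHC3, which encodes a SHC adaptor of neurons, with 3.16 (standard error 0.28, adjusted p = 0.00146), the brain phosphatase gene PPM1E with 2.28, MAPK10, which encodes the neural kinase JNK3, with 2.12, PAK3, which encodes a p21-activated kinase of neurons, with 2.09, and WASF1, which encodes WAVE1, with 1.94. MAPK10 and PAK3 were as late as PCDH17, with raw Ct values from 36.8 to 39.9 in all 4 samples. None of the 9 fell by limma, where 1, CNTN1, was lower at an unadjusted p under 0.05, and CKB, which encodes the creatine kinase of brain, was the only one called lower by the methods' t-test, with −0.19. That test did not call PAK3 or WASF1.

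NCAM1 and CNTN1, which encode adhesion molecules of axons, had log2 fold changes of 1.26 (adjusted p = 0.200) and −0.79 (adjusted p = 0.0644). The raw Ct of CNTN1 was 34.1 and 33.7 in HEK293-vector and 34.8 and 34.9 in HEK293-PRL-1, with no overlap of the groups. That of NCAM1 was 33.0 and 31.1 in HEK293-vector and 30.9 and 31.0 in HEK293-PRL-1, so that vector sample b lay close to both PRL-1 samples and far from vector sample a. Where a sample is left out, its group holds 1 sample, which is assumed to vary like the other group. Without HEK293-PRL-1 b, PPM1E, SHC3 and MAPK10 were called and PAK3 and WASF1 were not. Without HEK293-vector a CNTN1 was called lower, and without HEK293-vector b NCAM1 was called higher.

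The calls of these neural genes moved with the reference. With GAPDH, PPM1E, SHC3, WASF1 and MAPK10 rose and CKB and CNTN1 fell, where 71.3% of all tested assays were called, 49.4% higher and 21.8% lower. With the panel median, SHC3 rose and CKB, SYT2 and CNTN1 fell, where 77.6% were called, 25.9% higher and 51.7% lower. With B2M, 0 rose (0 at an unadjusted p under 0.05) and CKB, SYT2 and CNTN1 fell, where 59.8% were called, 12.6% higher and 47.1% lower. CNTN1 was the lowest of the 9 with every reference, at −1.34 with GAPDH, −2.97 with the panel median and −3.17 with B2M, in each case above PCDH17.

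**Figure D5:**
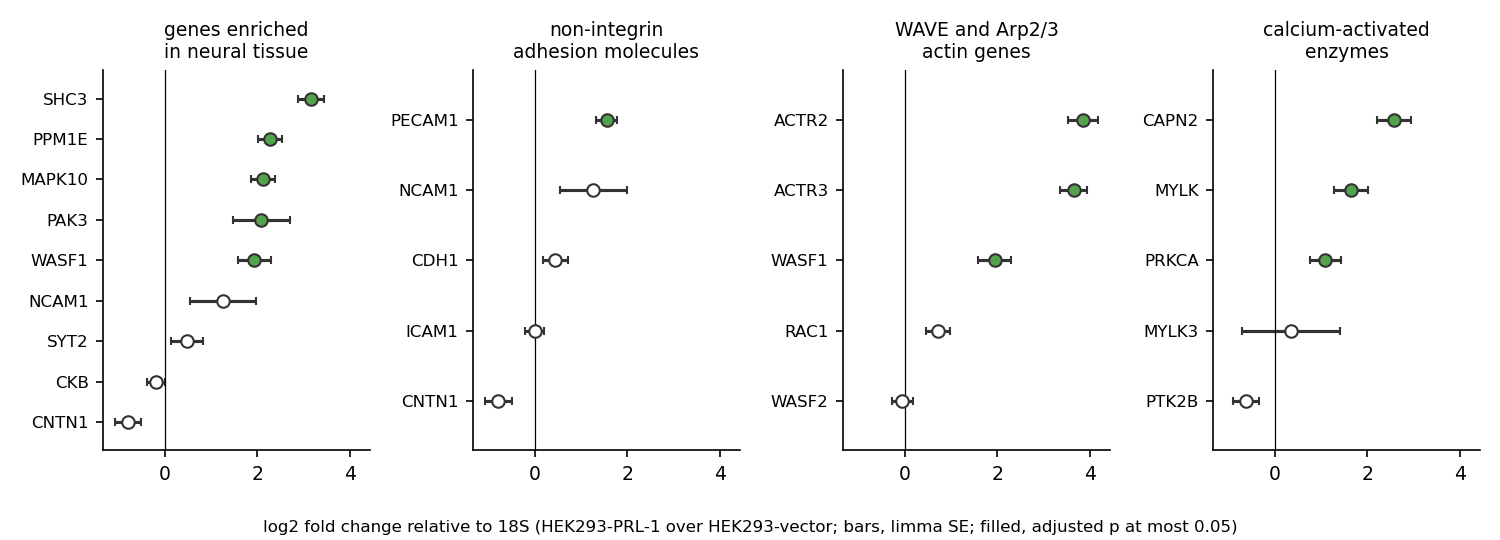
log2 fold change relative to 18S (HEK293-PRL-1 over HEK293-vector) with limma standard errors for the tested members of 4 gene lists, filled where the adjusted p was at most 0.05. The members range from −0.79 for CNTN1 to 3.85 for ACTR2, and no member is as low as SYT1 or PCDH17.

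Non-integrin adhesion molecules, the class to which PCDH17 belongs, had 1 call relative to 18S and 3 with each of the other references. Of all tested assays, 71.3% were called with GAPDH, 77.6% with the panel median and 59.8% with B2M, so that these counts were near or below the share of the whole panel. Of 7 genes, VCAM1 and SELE were at 40 in every sample, and of the other 5 only PECAM1 rose relative to 18S (limma), where 66.1% of all tested assays were called. PECAM1 was at 40 in both HEK293-vector samples and at 38.5 and 38.7 in HEK293-PRL-1, so that its log2 fold change of 1.56 (adjusted p = 0.00409) is a lower limit. ICAM1, a ligand of leukocyte integrins, was at −0.0023 on the log2 scale (limma standard error 0.20, adjusted p = 0.992), and none of the 5 fell, where CNTN1 was the 1 gene lower at an unadjusted p under 0.05 and the methods' t-test called 0 lower. Without HEK293-vector a, CNTN1 was also called, and without HEK293-vector b, NCAM1 was. With GAPDH as the reference CNTN1 and ICAM1 fell, and with B2M or the panel median CDH1 did as well, while PECAM1 was no longer called.

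The actin machinery that protocadherin 17 recruits in neurons was represented by 5 genes, of which 3 rose and 0 fell relative to 18S (limma, 0 lower at an unadjusted p under 0.05 and 0 lower by the methods' t-test), near the shares of 58.6% and 7.47% over all tested assays. ACTR2 and ACTR3, which encode the Arp2 and Arp3 subunits, and WASF1 rose, with log2 fold changes of 3.85 (standard error 0.32), 3.65 (standard error 0.29) and 1.94 (standard error 0.35). WASF2, which encodes WAVE2, had −0.05 (adjusted p = 0.865), and RAC1, which encodes the GTPase that activates WAVE, had 0.72 (adjusted p = 0.0616). The median of the list was 1.94, against 1.34 for all tested assays. Without HEK293-PRL-1 b, and by the methods' t-test, WASF1 was not called, and without HEK293-vector b RAC1 was called higher. ACTR2 and ACTR3 also rose with GAPDH, the panel median and B2M, by 1.47 and 1.27 with B2M, whereas WASF2 fell with these 3 references and RAC1 with the panel median and B2M. Of all tested assays, 49.4% rose and 21.8% fell with GAPDH, 25.9% and 51.7% with the panel median, and 12.6% and 47.1% with B2M.

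Calcium-activated enzymes were examined because synaptotagmin 1 is a calcium sensor. Of 5 genes, CAPN2, which encodes a subunit of calpain, MYLK, which encodes myosin light chain kinase, and PRKCA, which encodes protein kinase C alpha, rose relative to 18S with log2 fold changes of 2.58, 1.64 and 1.09 (limma, adjusted p between 0.00410 and 0.0422), where 58.6% of all tested assays rose. The methods' t-test called 0 of the 5 (1 at an unadjusted p under 0.05), and 51 of all 174 tested assays. PTK2B and MYLK3 did not pass, with −0.62 and 0.35. The median of the list was 1.09, below the 1.34 of all tested assays. Without HEK293-PRL-1 b only CAPN2 was called, and without HEK293-PRL-1 a only CAPN2 and MYLK were. PTK2B was called lower without HEK293-vector a, and MYLK3 higher without HEK293-vector b. With the panel median 0 rose and PRKCA and PTK2B fell, and with B2M 0 rose and PRKCA, PTK2B and MYLK3 fell (0 higher at an unadjusted p under 0.05 with either). The raw Ct of MYLK3 overlapped between the groups, with 39.0 and 37.0 in HEK293-vector and 39.0 and 36.7 in HEK293-PRL-1. Its call with B2M rests on a standard error of 0.53 shared by all assays, against 1.06 with 18S. Of all tested assays, 25.9% rose and 51.7% fell with the panel median, and 12.6% rose and 47.1% fell with B2M.

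The panel held few markers of cell identity, and none that defines HEK293 cells. Relative to 18S, where 58.6% of all tested assays rose and 7.47% fell, ITGB4 of 4 epithelial markers fell while LAMA3 and LAMB3 rose and CDH1 did not pass. Of 4 mesenchymal markers, ZEB1 rose by 4.33 and COL1A1 fell by 1.58 on the log2 scale, while FN1 and SNAI2 did not pass. LAMB3 was not called without HEK293-PRL-1 b, nor COL1A1 without HEK293-PRL-1 a. The methods' t-test called ITGB4, ZEB1 and PECAM1 but not LAMA3, LAMB3, COL1A1 or FLT1. FN1 was called lower with GAPDH, the panel median and B2M. SNAI2 was called lower with B2M and higher without HEK293-vector b or with the letters as a block. Endothelial markers also moved, with FLT1 higher by 2.55 and PECAM1 by at least 1.56, SELE was at 40 throughout, and the leukocyte gene ITGB2 had a Ct of 37.5 or later in every sample. ITGB4 and COL1A1 also fell and ZEB1 also rose with GAPDH, the panel median and B2M, whereas FLT1, PECAM1 and LAMA3 were called with neither the panel median nor B2M, and LAMB3 was called lower with the panel median. The part of these shifts in the values of SYT1 and PCDH17 was not tested.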

How the data were processed

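The raw Ct of each well of 2 custom TaqMan plates of 96 wells per sample was deposited by the authors without normalization. The authors reverse transcribed DNase-treated total RNA with random hexamers and entered 40 for wells that did not cross the threshold within 40 cycles. A second deposited table holds the authors' own fold changes and was not used. A Ct has no read depth, and 2 samples per group limit the precision. Fold changes assume a doubling per cycle, which was not measured.

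Target assays below 40 in at least 1 sample were fitted in R 4.3.3 with limma 3.58.1 (lmFit, then eBayes) on ΔCt relative to 18S, without pairing, with Benjamini-Hochberg adjustment over the 174 assays and a threshold of 0.05. Each assay had 2 residual degrees of freedom and a prior of 2.46. The methods of the study name a t-test per assay, which was run as an alternative and is called the methods' t-test. The replicates are separate cultures of the same lines. The fit was tested on simulated data.

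The genes and the 10 gene lists (neural, adhesion, actin, calcium, cell identity and the relatives SYT2 and CDH1) were chosen with earlier results of these data known. Named genes are SYT1, PCDH17, members of these lists, the 3 assays with the closest profiles, the decreases next in order and reference genes. The fourth reference gene on the plates is not reported here. Promoter windows and gene positions came from RefSeq tables of GRCh38.p14, in which SYT1 and PCDH17 were both found. Tables were summarised with pandas 2.3.3 and numpy 2.4.6 under Python 3.11.15, and plots drawn with matplotlib 3.10.9.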

Additional observations from a re-analysis of the deposited data

How the results depend on the processing

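The decrease of SYT1 and PCDH17, for which they were chosen, kept its direction under every alternative run here. As the groups did not overlap, leaving out a sample or another amplification per cycle could not change its sign. SYT1 was at −6.93 with B2M and −6.74 with the panel median as the reference, and PCDH17 at −5.05 and −4.86, and at −3.22 with GAPDH. Leaving out each sample gave −5.21 to −3.90 for SYT1 and −3.08 to −2.26 for PCDH17, and an amplification of 1.9-fold per cycle gave −4.22 and −2.47. Taking 18S from the assay's own plate, or a Ct of 40 as missing, moved both by less than the spread between samples.

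Of all assays, limma called 115, and 84 to 123 with each sample left out, where the lone sample of a group is assumed to vary like the other group. The methods' t-test called 51, 42 higher and 9 lower. The split between higher and lower calls, 102 and 13 with 18S, moved with the reference, to 86 higher and 38 lower for GAPDH, 45 and 90 for the panel median, and 22 and 82 for B2M, where the prior degrees of freedom were infinite and adjusted p-values are too small. Of the neural genes, 5 were called with 18S, 3 with B2M, 3 with assays limited to a mean Ct below 35 in at least 1 group, which leaves out MAPK10 and PAK3, and 3 to 7 with each sample left out. Of the calcium-activated enzymes, 3 were called with limma, 1 to 4 with each sample left out, and 0 by the methods' t-test, where 1 had an unadjusted p under 0.05. Of the non-integrin adhesion molecules, 1 was called with 18S, 3 with GAPDH, 3 with the panel median and 3 with B2M. Of these molecules, 0 were called with a Ct of 40 as missing and 0 with a mean Ct below 35, where PECAM1 was not tested and 1 had an unadjusted p under 0.05 in each limma fit, and 1 to 2 with each sample left out. For the actin genes, 2 to 4 were called under all alternatives. The cause of the other changes was not tested.

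A fit with the column letters as a replicate block gave 117 calls over all assays, 5 of 9 neural genes and 4 of 5 actin genes, with RAC1 added. Deviations of same-letter samples had a Pearson correlation of −0.0146 over the 174 tested assays. A correlation does not register a shift common to all assays, so it cannot decide whether same-letter samples moved together. The median ΔCt of sample a minus sample b was 0.419 cycles in HEK293-vector and 0.253 cycles in HEK293-PRL-1. The labels do not tie the letters to replicate numbers, and they were not taken as pairs.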
